A study of Homo sapiens with 6 samples.

Results

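The genes described here are 8 genes tied to androgen signaling and to the identity of prostate epithelium: KLK2, KLK3, TMPRSS2, FOXA1, HOXB13, FOLH1, NR3C1 and FKBP5. They were taken by symbol from a table of 24000 gene entries, and each matched 1 entry. FKBP5 is listed jointly with LOC285847, so its value belongs to both. The table covers 6 tumors of PC-3, a human prostate cancer cell line that grows without androgen. The tumors were xenografts in nude mice, 3 from vehicle-treated mice and 3 from mice given WCE, a standardized extract of the herb Wedelia chinensis, with a treatment of 10 weeks in the labels of both groups. The labels give neither a dose nor the age or sex of the hosts. The paper gives the age of the mice, but its methods and its results on tumor growth name different daily doses of WCE. The mouse treatments whose length it states are shorter than the treatment in the labels. Which dose and length apply to the sequenced tumors is not said. The paper's methods describe PC-3 cells carrying luciferase that were injected into the prostate of male athymic mice, treated daily by gavage, and mention no castration. Every tumor thus comes from 1 cell line, and the hosts lack T cells of their own. The samples are described as individual tumors, but whether each came from a mouse of its own is not said, so p-values measure the spread between these 6 samples, which may be technical in part.

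In prostate luminal cells, androgen switches on secretory and protease genes. FOXA1 opens chromatin at many of these genes and HOXB13 marks the prostate lineage. The glucocorticoid receptor, encoded by NR3C1, is a nuclear receptor that can drive some of the genes that androgen drives, FKBP5 among them. PC-3 grows without androgen, and the study chose it as a hormone-refractory model.

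Values are FPKM (fragments per kilobase of transcript, scaled to all mapped fragments), a level per gene length, so that levels can be set side by side between genes. Silent means under 0.5 FPKM in each of the 6 tumors. The 2 members that met this were KLK2 and KLK3, both listed at 0 FPKM in each tumor. By mean level they shared rank 18537 from the top of 24000 entries with every other entry at 0 throughout, so such entries were common. The other 6 members stood above 3.6 FPKM in each tumor.

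KLK3 encodes prostate-specific antigen and KLK2 the related protease that activates it, and both are classical androgen-driven genes. They lie next to each other on chromosome 19, KLK3 at 51358171 to 51364020 and KLK2 at 51376689 to 51383823 in the table's coordinates, which carry the haplotype contig names of hg19, the human build named in the submitters' processing notes. Because these silent genes are neighbors with alike control regions, the 250 bases before each start are shown, from RefSeq on GRCh38.p14, plus strand. Capitals mark AGAACA, the first 6 bases of the element that the androgen and glucocorticoid receptors bind, and the reverse complement of TATAAA near the start.

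KLK3: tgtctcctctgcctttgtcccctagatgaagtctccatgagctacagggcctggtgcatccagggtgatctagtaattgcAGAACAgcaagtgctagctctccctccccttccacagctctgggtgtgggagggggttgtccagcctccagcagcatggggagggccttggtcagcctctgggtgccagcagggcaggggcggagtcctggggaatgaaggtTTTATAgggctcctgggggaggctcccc

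KLK2: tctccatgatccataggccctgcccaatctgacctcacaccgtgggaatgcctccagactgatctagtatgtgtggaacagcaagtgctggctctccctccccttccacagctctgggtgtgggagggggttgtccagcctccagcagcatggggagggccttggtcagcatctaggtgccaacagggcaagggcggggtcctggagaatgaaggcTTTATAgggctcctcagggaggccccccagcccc

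The KLK3 window is chr19:50854665-50854914 and the KLK2 window is chr19:50873189-50873438. Over 266 aligned positions, 211 were identical, or 79.3%. In KLK3 the AGAACA core begins at -170 from the start and opens a 15-base stretch that KLK2 shares except for 1 substitution, A1G, counted from 1 at the 5′ end of the stretch with the KLK3 base first. The same TATA letters were found at -28 in KLK3 and at -34 in KLK2. Of the 8 members, 5 had windows in the RefSeq table, 12 windows of 300 bases in all (250 before and 50 after a start). Most of these 12 windows belonged to NR3C1. The full 15-base element (AGAACA, any 3 bases, TGTTCT) was in 0 of these 12 windows and in 0.00285% of 35116 windows searched on both strands. An exact match this rare was unlikely to be met in 12 windows, and elements with substitutions were not searched. AGAACA alone was in 2 of the 12, in KLK3 and FKBP5, against 14.8% of all windows. TATAAA was in 3 of the 12, in KLK2, KLK3 and NR3C1, against 11.5% of all. The forkhead motif TGTTTAC was in 1 of the 12, in NR3C1, against 3.42%, and CCAATAAA, a HOXB13 motif, was in 0 of the 12, against 0.934%. These are matches of letters within the windows and no more.

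Before the comparisons, a fact about the libraries has to be stated, since it touches each result. Vehicle replicate 3 and WCE replicate 1 held nearly the same values. Over 1915 entries with a mean of at least 50 FPKM, their log2 values lay apart by a median of 0.028, where the 14 remaining pairs of tumors had medians of 0.095 to 0.247. WCE replicate 1 also had 0 entries above 0 that vehicle replicate 3 lacked. The depth of WCE replicate 1, read from the step size of low values, was 25.0% of that of vehicle replicate 3, and that of the others was 64.8% to 85.2%. The absolute depth is unknown. The pair is here called the near-identical pair, and results of the members, the gene lists and the cell type markers are also given without it. Among the 6 expressed members, WCE replicate 1 differed from vehicle replicate 3 by between -0.04 for FOXA1 and 0.14 for FOLH1 on the log2(FPKM + 1) scale.

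The labelled cell type was checked against markers. All 5 luminal epithelial markers (KRT8, KRT18, KRT19, EPCAM and CDH1) were above 0.5 FPKM in each tumor, and so were all 5 basal markers (KRT5, KRT14, KRT15, TP63 and DSC3). Of the markers of other cells, 2 of 6 neuroendocrine genes (SYP and ENO2) passed this level in each tumor, with INSM1 and CHGB at 0 throughout. The same held for 1 of 5 endothelial genes (PECAM1), 2 of 5 fibroblast genes (COL1A1 and PDGFRA), 1 of 4 smooth muscle genes (ACTA2) and 1 of 5 myeloid genes (CD68). The defining markers CDH5, VWF and CSF1R were under 0.15 FPKM in each tumor. Whether mouse reads were separated from human reads is not given in the sources used here.

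**Figure D1:**
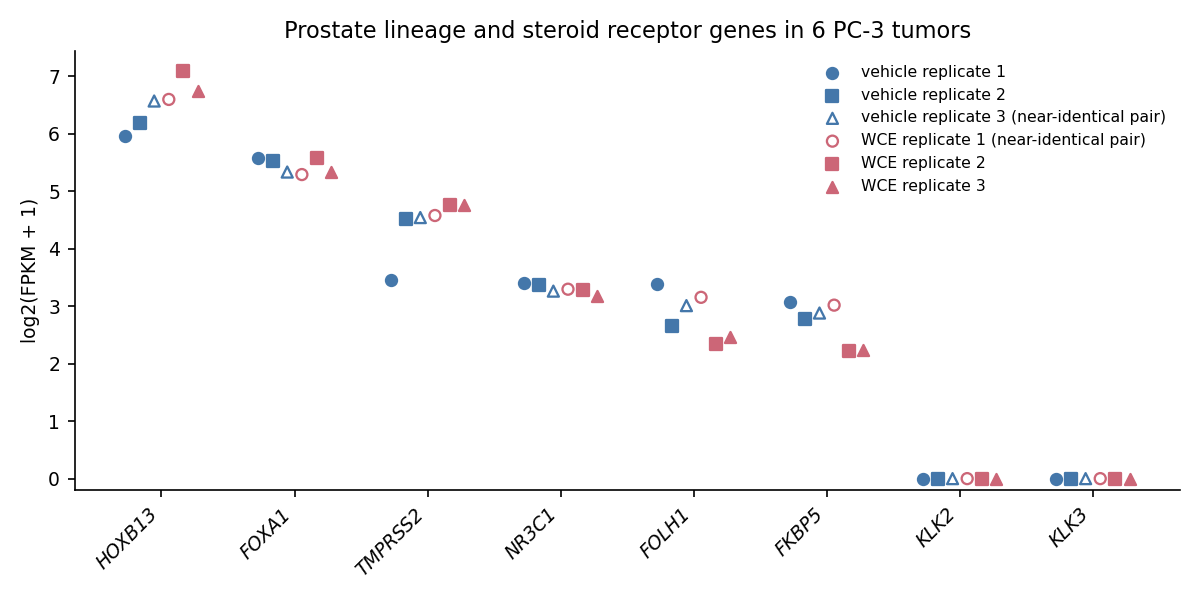
Levels of the 8 genes in each tumor, as log2(FPKM + 1) on the vertical axis, with 1 point per tumor, vehicle in blue and WCE in red, and open symbols for the near-identical pair. HOXB13 stands highest, from 61.5 to 135 FPKM, and KLK2 and KLK3 are at 0 in each tumor.

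The lineage factors were the highest of the 8 genes. HOXB13, a homeobox gene of the prostate and hindgut, had a mean of 94.1 ± 26.0 FPKM (SD, n = 6), above 95.9% of all entries. FOXA1, the forkhead pioneer factor, had 42.6 ± 4.12 FPKM, above 90.5% of entries. TMPRSS2, a membrane serine protease whose gene is switched on by androgen in luminal cells, followed with 21.5 ± 5.95 FPKM, above 82.6%. In each tumor HOXB13 was above FOXA1 and FOXA1 above TMPRSS2, and the ranges of neighbors in this order over the 6 tumors were separate. NR3C1 had 8.84 ± 0.567 FPKM, FOLH1 6.39 ± 2.10 FPKM and FKBP5 5.68 ± 1.64 FPKM, and these ranges overlapped from one to the next. Within tumors NR3C1 was above FOLH1 in 6 of 6 and FOLH1 above FKBP5 in 5 of 6. The expressed members thus ran from 5.68 to 94.1 FPKM beside 2 that were silent.

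Among the steroid receptors described here, NR3C1 was the highest. ESR1, the estrogen receptor alpha gene, lay between 1.06 and 2.64 FPKM, and NR3C2, the mineralocorticoid receptor gene, between 0.902 and 1.29 FPKM. ESR2, the estrogen receptor beta gene, lay between 0.127 and 0.532 FPKM. PGR, the progesterone receptor gene, was silent, with 0.00497 FPKM as its highest value. The log2 differences (WCE minus vehicle) of the 3 receptors tested were -0.10 for NR3C1, -0.04 for ESR1 and 0.0007 for NR3C2, with adjusted p from 0.745 to 0.999 by limma. Without the near-identical pair they were -0.16, -0.08 and 0.001.

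KLK2 and KLK3 were not silent together with their whole family. Of the 15 kallikrein genes KLK1 to KLK15, 6 were silent, among them 3 at 0 in each tumor (KLK2, KLK3 and KLK15), and 5 were above 0.5 FPKM in each tumor. KLK5, a skin-type kallikrein, had the highest mean, from 26.1 FPKM in vehicle replicate 2 to 40.7 FPKM in WCE replicate 2. KLK4, an androgen-driven family member, reached 0.537 FPKM in vehicle replicate 2 and was at 0 in WCE replicate 1. The lowest value above 0 in the family was 0.0467 FPKM, for KLK9 in WCE replicate 3, so levels of this size could be listed at the depth of that tumor. KLK7 had 1.38, 2.41 and 2.17 FPKM under vehicle and 1.92, 0.285 and 0.634 FPKM under WCE, a log2 difference of -0.69 (SE 0.30, limma unadjusted p = 0.0540, adjusted p = 0.623). KLK6 differed by -0.44 and KLK5 by 0.08, with adjusted p of 0.662 and 0.896 by limma. The median log2 difference of the 8 kallikreins tested was -0.25, beside -0.0063 over all entries tested, with 7 lower, 1 higher and 0 under an unadjusted p of 0.05. This median was -0.51 without WCE replicate 1, -0.44 without vehicle replicate 1, -0.14 without WCE replicate 2 and -0.39 without the near-identical pair.

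**Figure D2:**
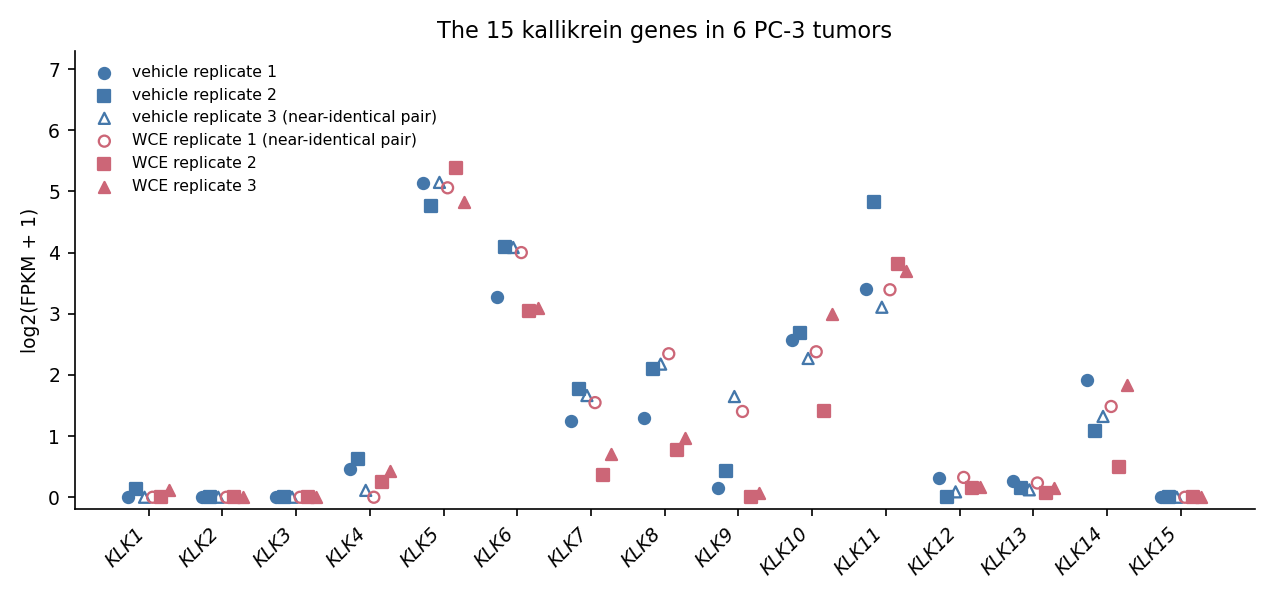
Levels of the 15 kallikrein genes in each tumor, as log2(FPKM + 1) on the vertical axis, with vehicle in blue, WCE in red and open symbols for the near-identical pair. KLK2, KLK3 and KLK15 are at 0 in each tumor, while KLK5 lies between 26.1 and 40.7 FPKM.

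To ask whether WCE treatment went with a change in these genes, limma was run on log2(FPKM + 1) for all 13287 entries whose mean reached 0.5 FPKM. This scale understates changes of low genes. Of the 8 members, 6 could be tested, and 0 had an adjusted p under 0.05 by limma, where 1 entry in all, or 0.00753%, did. At an unadjusted p under 0.05 by limma, 1 of the 6 was called (HOXB13), against 7.1% of all entries. With an unmoderated test 0 of the 6 were called. In 2 of the 6 (HOXB13 and TMPRSS2) each WCE-treated tumor was above each vehicle-treated tumor, against 6.37% of all entries. For both, the gap between the groups was that within the near-identical pair. In 0 of the 6 were the groups separate with lower WCE values, against 6.4% of all entries. The median log2 difference (WCE minus vehicle) of the 6 was -0.09, with 2 higher and 4 lower, beside -0.0063 over all entries tested. With the near-identical pair left out, 2 of the 6 (HOXB13 and FKBP5) had an unadjusted p under 0.05, against 18.4% of all entries.

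HOXB13, on chromosome 17 from 46802127 to 46806111, stood at 61.5, 72.1 and 93.9 FPKM in vehicle replicates 1 to 3 and at 95.7, 135 and 107 FPKM in WCE replicates 1 to 3. The WCE-treated tumors were thus all higher, but the gap between the groups was that between the near-identical libraries, 93.9 against 95.7 FPKM. The means were 75.8 ± 16.5 and 112 ± 20.3 FPKM (SD, n = 3 each), 1.48 times as high under WCE. The log2 difference was 0.57 (SE 0.18, 95% interval 0.14 to 1.00, limma unadjusted p = 0.0162, adjusted p = 0.623). Its two-sided exact permutation p was 0.1, and no smaller p is possible with 3 against 3. Without the near-identical pair the log2 difference was 0.84 (95% interval 0.44 to 1.24, limma unadjusted p = 0.00290, adjusted p = 0.174). The unadjusted call was lost without vehicle replicate 1 (limma unadjusted p = 0.0542), vehicle replicate 2 (limma unadjusted p = 0.0519) or WCE replicate 2 (limma unadjusted p = 0.0564).

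TMPRSS2, on chromosome 21 from 42836478 to 42880085, stood at 9.94, 22.0 and 22.3 FPKM in vehicle replicates 1 to 3 and at 22.9, 25.9 and 26.1 FPKM in WCE replicates 1 to 3. The WCE-treated tumors were all higher here too, yet 5 of the 6 tumors lay within 22.0 to 26.1 FPKM and vehicle replicate 1 alone was low. The gap between the groups was again that between the near-identical libraries, 22.3 against 22.9 FPKM. The means were 18.1 ± 7.04 and 24.9 ± 1.81 FPKM (SD, n = 3 each). The log2 difference was 0.52 (SE 0.28, 95% interval -0.12 to 1.17, limma unadjusted p = 0.0986, adjusted p = 0.623), and the exact permutation test again gave p = 0.1. Without vehicle replicate 1 the log2 difference was 0.16 (unadjusted p = 0.153 by limma), and without the near-identical pair it was 0.77 (unadjusted p = 0.0765 by limma). Vehicle replicate 1 was the lowest tumor in both TMPRSS2 and HOXB13.

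FKBP5, on chromosome 6 from 35541362 to 35704724, encodes a cochaperone that binds HSP90 in steroid receptor complexes and dampens glucocorticoid signaling, and its gene is a classical target of glucocorticoids and of androgen. It stood at 7.39, 5.85 and 6.36 FPKM in vehicle replicates 1 to 3 and at 7.10, 3.63 and 3.73 FPKM in WCE replicates 1 to 3. WCE replicates 2 and 3 were below each vehicle-treated tumor, while WCE replicate 1 lay among them. The log2 difference was -0.42 (SE 0.22, 95% interval -0.93 to 0.10, limma unadjusted p = 0.0981, adjusted p = 0.623), less than the spread between tumors could resolve. Without WCE replicate 1 it was -0.68 (limma unadjusted p = 0.00131, adjusted p = 0.132). Without the near-identical pair it was -0.70 (95% interval -1.07 to -0.32, limma unadjusted p = 0.00497, adjusted p = 0.179).

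FOLH1, on chromosome 11 from 49168187 to 49230222, encodes prostate-specific membrane antigen, a surface peptidase used as an imaging target. It stood at 9.45, 5.31 and 7.05 FPKM in vehicle replicates 1 to 3 and at 7.90, 4.09 and 4.53 FPKM in WCE replicates 1 to 3. As for FKBP5, WCE replicates 2 and 3 were lowest and WCE replicate 1 lay within the vehicle range. The log2 difference was -0.36 (SE 0.26, 95% interval -0.96 to 0.23, limma unadjusted p = 0.196, adjusted p = 0.662). Without WCE replicate 1 it was -0.61 (unadjusted p = 0.0243 by limma), and without the near-identical pair it was -0.61 (unadjusted p = 0.0605 by limma). FOLH1 has a close copy, FOLH1B, listed at 0.584 to 1.72 FPKM, and the authors' counting could have split reads between them.

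NR3C1 and FOXA1 varied least. NR3C1, on chromosome 5 from 142657496 to 142815077, stood at 9.63, 9.31 and 8.59 FPKM in vehicle replicates 1 to 3 and at 8.81, 8.69 and 8.02 FPKM in WCE replicates 1 to 3, with overlapping groups. Its log2 difference was -0.10 (95% interval -0.32 to 0.13, adjusted p = 0.745 by limma), and -0.16 without the near-identical pair. FOXA1, on chromosome 14 from 38059191 to 38064489, stood at 46.7, 45.2 and 39.3 FPKM in vehicle replicates 1 to 3 and at 38.1, 47.0 and 39.3 FPKM in WCE replicates 1 to 3. The highest and the lowest FOXA1 value were both in WCE-treated tumors. Its log2 difference was -0.08 (95% interval -0.35 to 0.20, adjusted p = 0.842 by limma), and -0.09 without the near-identical pair. These intervals leave room for changes up to their ends and do not show that the levels were equal.

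**Figure D3:**
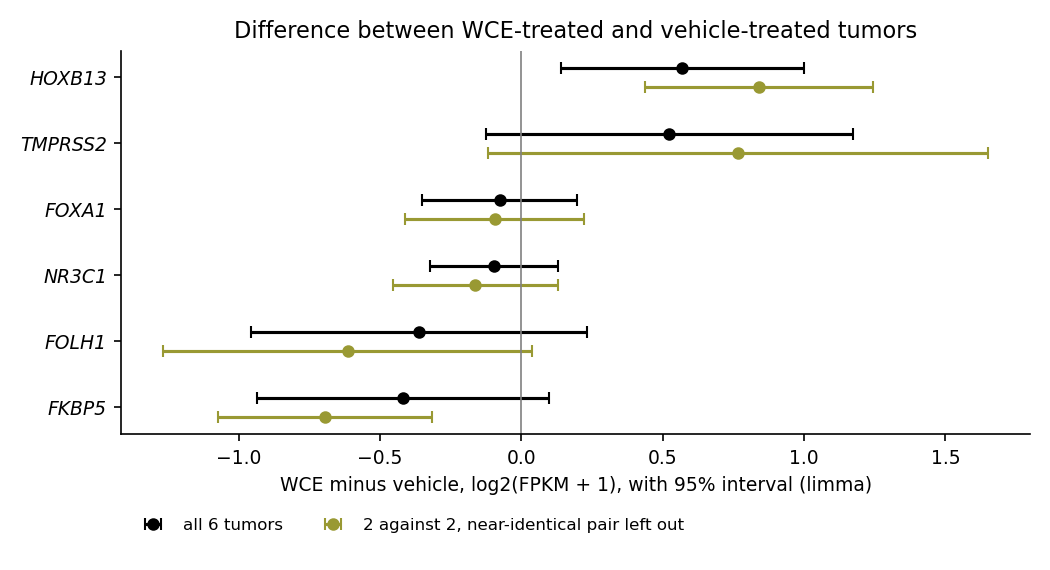
Difference of the 6 expressed members between WCE-treated and vehicle-treated tumors on the log2(FPKM + 1) scale (horizontal axis) with 95% intervals from limma, for all 6 tumors in black and with the near-identical pair left out in olive. HOXB13 lies above 0 in both, at 0.57 and 0.84, and FKBP5 moves from -0.42 to -0.70.

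In these bulk tumors, fewer cells of a type and less RNA per cell cannot be told apart. The hosts were mice, while the entries are human genes, and whether mouse reads were separated is not given. The endothelial, fibroblast, smooth muscle and myeloid sums are therefore not measures of the number of such host cells. The summed luminal markers were 1203 to 1447 FPKM under vehicle and 1146 to 1406 FPKM under WCE, and overlapped. The basal sums, 87.9 to 302 and 96.3 to 301 FPKM, and the smooth muscle sums, 1.32 to 2.74 and 1.34 to 2.85 FPKM, overlapped as well. The fibroblast sums were 40.8 to 49.7 FPKM under vehicle and 43.2 to 66.7 FPKM under WCE. These 4 sums also overlapped with the near-identical pair left out.

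The other sums overlapped only through that pair. The endothelial sum was 1.20 to 3.37 FPKM under vehicle and 3.21 to 7.60 FPKM under WCE, and without the pair the WCE range was 3.73 to 7.60 FPKM. The myeloid sum was 25.8 to 41.0 and 39.8 to 44.4 FPKM, and without the pair 25.8 to 31.1 and 39.9 to 44.4 FPKM. The neuroendocrine sum was 36.4 to 61.6 and 58.2 to 89.6 FPKM, and without the pair 36.4 to 37.8 and 77.5 to 89.6 FPKM. Without the pair these 3 sums were thus higher in both WCE-treated tumors than in both vehicle-treated ones.

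A few genes carried these sums. CD68 made up nearly all of the myeloid sum in each tumor, and differed by 0.37, or by 0.57 without the pair. No other myeloid marker exceeded 0.666 FPKM, the value of PTPRC in WCE replicate 1, so that sum does not describe the myeloid list as a whole. KDR, a VEGF receptor gene, was at 5.12 FPKM in WCE replicate 3, most of the endothelial sum of that tumor, and differed by 1.14 on the log2(FPKM + 1) scale, or by 1.69 without the pair. ENO2, an enolase gene also used in glycolysis, differed by 0.75, or by 1.16 without the pair. The epithelial adhesion genes EPCAM and CDH1 differed by -0.73 and -0.47, or by -1.08 and -0.68 without the pair. The basal keratin KRT15 differed by 0.58, or by 0.87 without the pair, while KRT5 and KRT14 were highest in the pair. With all 6 tumors, each of these differences had an adjusted p of 0.623 by limma. For EPCAM, CDH1, KRT15 and KDR the groups were separate only by the small gap within the pair. In this order, vehicle replicate 3 and WCE replicate 1 stood at 184.9 against 180.0, 57.8 against 56.5, 60.11 against 60.12 and 0.529 against 0.559 FPKM. Separate groups with higher WCE values were found in 6.37% of all entries, and with lower ones in 6.4%. The part of these marker genes in the differences of the members was not tested.

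Genes that act with the members were described by fixed lists. Of 21 other androgen-responsive genes, 17 were above 0.5 FPKM in each tumor and 1 (TRPM8) was silent. NDRG1, a stress and androgen-responsive gene, was the highest of them, from 212 to 594 FPKM. Of the 17 tested, 8 were higher and 9 lower under WCE, with a median log2 difference of -0.03. In 2 of the 17 the groups were separate with higher WCE values and in 0 with lower, against 6.37% and 6.4% of all entries. An unadjusted p under 0.05 by limma was found for 1 lower gene, against 7.1% of all entries. This was STEAP1, a surface protein gene of prostate cancer, at 32.0, 39.3 and 29.9 FPKM under vehicle and 30.5, 21.8 and 24.8 FPKM under WCE (log2 difference -0.38, limma unadjusted p = 0.0385, adjusted p = 0.623). Its relative STEAP4 differed by -0.66 (adjusted p = 0.623 by limma), with WCE replicates 2 and 3 lowest.

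Of 15 glucocorticoid-responsive genes, 13 were tested, 6 higher and 7 lower, with a median log2 difference of -0.06. PER1, a clock gene and glucocorticoid target, had 7.05, 5.76 and 7.92 FPKM under vehicle and 8.32, 10.5 and 10.4 FPKM under WCE. Its groups were separate only by the gap within the near-identical pair, 7.92 against 8.32 FPKM. Separate groups with higher WCE values were found in 6.37% of all entries. The log2 difference of PER1 was 0.44 (limma unadjusted p = 0.0151, adjusted p = 0.623), and it was the 1 gene of the list under an unadjusted p of 0.05. TIPARP differed by 0.26 and MT2A, a metallothionein gene and the highest of the list, by -0.21 (adjusted p of 0.623 and 0.758 by limma). The tested genes of this list thus lay on both sides of 0.

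The chaperones that fold steroid receptors were abundant, with a mean of 926 FPKM for HSP90AA1 and 840 FPKM for HSP90AB1. Of 10 tested, 8 were lower and 2 higher, with a median log2 difference of -0.13, which was 0.02 without vehicle replicate 1. PPID, an HSP90-bound cochaperone like FKBP5, had 38.7, 27.9 and 26.9 FPKM under vehicle and 27.5, 19.7 and 20.6 FPKM under WCE (log2 difference -0.44, limma unadjusted p = 0.0393, adjusted p = 0.623). HSP90AB1 differed by -0.23, with groups separate only by the gap within the near-identical pair, 830 against 820 FPKM. Separate groups with lower WCE values were found in 6.4% of all entries. Of 10 coregulators, 8 were higher and 2 lower, with a median of 0.06 and 0 under an unadjusted p of 0.05 by limma. NCOA2 differed by 0.25 and KDM1A by -0.01 (adjusted p of 0.648 and 0.984 by limma).

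Of 15 partner factors of prostate lineage, 12 were tested, 9 higher and 3 lower, with a median of 0.14 and 0 under an unadjusted p of 0.05 by limma. FOXA2, the relative of FOXA1, had 7.71, 8.07 and 7.16 FPKM under vehicle and 7.17, 15.9 and 13.0 FPKM under WCE, so that WCE replicates 2 and 3 stood above the other tumors (log2 difference 0.53, adjusted p = 0.623 by limma). MEIS2, a homeobox partner of HOX proteins, was lower in each WCE-treated tumor (log2 difference -0.25, adjusted p = 0.623 by limma). The gap was small, 5.94 FPKM in vehicle replicate 3 against 5.74 FPKM in WCE replicate 3. Separate groups with lower WCE values were found in 6.4% of all entries. ETV4, the highest of the list, differed by 0.12. Among 9 epithelial serine proteases related to TMPRSS2, 5 were tested, with a median of -0.01. ST14, the gene of matriptase, had 95.0, 73.8 and 73.8 FPKM under vehicle and 74.4, 35.5 and 49.4 FPKM under WCE (log2 difference -0.65, limma unadjusted p = 0.0331, adjusted p = 0.623), and PRSS22 differed by -0.36. In steroid metabolism, 15 of 17 genes matched a single entry, 10 were tested and 0 had an unadjusted p under 0.05 by limma, with a median of 0.01. SRD5A3, AKR1C2 and HSD17B4 differed by 0.22, 0.28 and -0.08, the last with the highest level of the list.

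With the near-identical pair left out, several of these differences were larger. The log2 difference was then -0.59 for STEAP1, -1.06 for STEAP4, -0.98 for KLK7, -0.68 for PPID and -0.98 for ST14. PER1 stood at 0.63 and FOXA2 at 0.79. In that comparison limma gave each of these an unadjusted p under 0.05, and the same held for 18.4% of all entries. HSP90AB1 and MEIS2 stood at -0.34 and -0.32. The median was then 0.02 for the androgen-responsive genes, on the other side of 0, and -0.08 for the glucocorticoid-responsive ones. It was -0.19 for the chaperones, 0.11 for the coregulators and 0.20 for the lineage partner factors. It was -0.06 for the serine proteases and 0.01 for steroid metabolism.

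**Figure D4:**
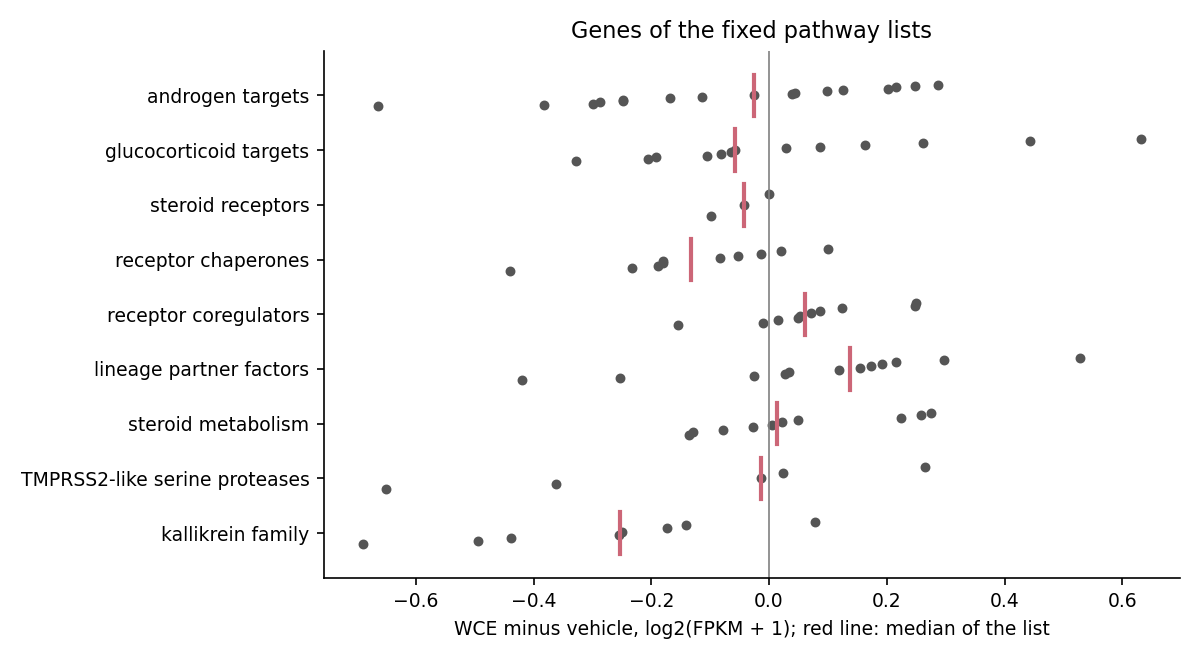
Differences between WCE-treated and vehicle-treated tumors on the log2(FPKM + 1) scale (horizontal axis) for each tested gene of the 9 fixed lists (rows), with 1 point per gene and a red line at the median. The medians lie between -0.25 for the kallikreins and 0.14 for the lineage partner factors.

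Finally, the entries most like each member were found among 9239 entries with a mean of at least 5 FPKM, by the root mean square difference of centered log2(FPKM + 1) values over the 6 tumors. For HOXB13 these were GDF11 (0.050) and ST6GAL1 (0.070). GDF11 ran from 5.13 FPKM in vehicle replicate 1 to 11.8 FPKM in WCE replicate 2, the same ends as HOXB13. For TMPRSS2 they were GOLGA8A (0.066), lowest in vehicle replicate 1 at 7.15 FPKM, and the joint entry of QSOX1 and FLJ23867 (0.077). For FKBP5 they were TAGLN (0.059) and C20orf3 (0.067), both lowest in WCE replicates 2 and 3. FOLH1 was matched less closely, by GALNT1 (0.105) and KIFC1 (0.118). FOXA1 was closest to METAP2 (0.026) and YRDC (0.030), and NR3C1 to TIPRL (0.011) and RRP15 (0.0125), where small distances come with small spread. With 6 tumors, 2 of them nearly identical, these are descriptions.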

How the data were processed

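RNA-seq of 6 PC-3 xenografts (3 vehicle, 3 WCE) was examined. Libraries were made with a stranded mRNA kit. The authors deposited FPKM values, 1 per gene entry and tumor, with no read counts. The submitters' processing notes name TopHat2 2.0.13, Cufflinks, hg19 and mm10. Their roles, the annotation, the strand setting of the counting and any scaling between tumors are not given in the sources used here. FPKM from such tools can split reads between close copies, and low values are imprecise. Since the number of reads is unknown, intervals for counting error were not computed.

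Entries whose mean reached 0.5 FPKM were compared as log2(FPKM + 1) with limma 3.58.1 (R 4.3.3), with a mean-variance trend, two-sided, with Benjamini-Hochberg adjustment and a threshold of 0.05. Relative depth came from the commonest ratio of low values. Starts of loci are counted from 1. Python 3.11.15, pandas 2.3.3 and Biopython 1.88 served for matching and for the windows of 300 bases, and matplotlib 3.10.9 for figures. The limma step was tested on simulated data.

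The members and the lists were chosen with earlier results of these data known. Named genes are the members, the steroid receptors of the list, the 2 lowest p and the highest mean of each list, and the 2 nearest entries of each member. FOLH1B, PRAC, UGT2B15, UGT2B17 and KLF9, and the kallikreins KLK4, KLK9 and KLK15, TRPM8 and the cell type markers named singly were named after their values were seen. Some genes that this rule names are not reported here. Alternatives were the pseudocount, the filter, scaling, trend, moderation, weights, a replicate block, each tumor left out and the near-identical pair left out.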

Additional observations from a re-analysis of the deposited data

How the results depend on the processing

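Each of the 6 tested members kept its direction in all 17 alternatives, and 0 members had an adjusted p under 0.05 by limma in any of them, or in the unmoderated test. The alternatives of filter, trend, moderation and replicate block could not change the log2 difference of a member. Its direction was therefore put to the test only by the pseudocount, scaling, weights and leaving tumors out. The adjusted p ranged from 0.126 to 0.964 for HOXB13 and for FKBP5, from 0.247 to 0.964 for TMPRSS2 and from 0.252 to 0.964 for FOLH1. The number of members with an unadjusted p under 0.05 was 1 as reported, 0 with the unmoderated test, 2 with array weights, 2 with the near-identical pair left out, 3 with a replicate block, and 0 to 3 when single tumors were left out. Over all entries the unadjusted count was 944 as reported, 593 with the unmoderated test, 3201 with array weights, 1049 with a replicate block, 2449 with the pair left out and 219 to 2033 when single tumors were left out. The adjusted count over all entries was 1, and it was 0 with no filter and with the unmoderated test, 5 with the pair left out and 1 to 7 when single tumors were left out. Upper-quartile scaling moved the share of unadjusted calls that were higher under WCE from 53.2% to 23.6%. The cause was not tested.

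The log2 difference ranged from 0.16 to 0.71 for TMPRSS2, from 0.43 to 0.73 for HOXB13, from -0.61 to -0.18 for FOLH1 and from -0.68 to -0.28 for FKBP5 when single tumors were left out. HOXB13 had an unadjusted p of 0.0671 in the unmoderated test, and FKBP5 one of 0.00874 with array weights. With the replicate block, FOLH1 (limma unadjusted p = 0.0268) and FKBP5 (limma unadjusted p = 0.0431) joined HOXB13. The labels only number the tumors and do not say that same-numbered tumors are paired. Deviations of same-numbered tumors had correlations of -0.24, 0.16 and -0.09. With 3 tumors per group and the near-identical pair among them, these correlations cannot decide whether the numbers pair the samples. The medians of the 9 gene lists kept their direction in 14 to 17 of the 17 alternatives. Here too, trend, moderation, the replicate block and the removal of the filter could not change a median. Among them, the median moved by more than the spread between tumors for the chaperones (0.02) and the lineage partner factors (0.06) without vehicle replicate 1, and for the androgen-responsive genes (-0.12) without vehicle replicate 2. Low values are least precise in WCE replicate 1, whose relative depth was 25.0%.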

Other observations

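PRAC, a gene named for its expression in prostate and rectum, is the neighbor of HOXB13 in the table, on chromosome 17 from 46799082 to 46799882. It stood at 182, 265 and 214 FPKM in vehicle replicates 1 to 3 and at 211, 328 and 273 FPKM in WCE replicates 1 to 3. Its lowest and highest tumors were those of HOXB13, vehicle replicate 1 and WCE replicate 2, while its groups overlapped.

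Vehicle replicate 1, the lowest tumor in TMPRSS2 and HOXB13, was the highest in 3 genes known to respond to steroid receptors. UGT2B17, an androgen-inactivating enzyme gene that androgen represses, stood at 1.63 FPKM there and at 0.0575 to 0.637 FPKM in the other tumors. Its relative UGT2B15 stood at 2.00 FPKM there and at 0.209 to 0.781 FPKM in the others, and how reads of these close copies were assigned is not given in the sources used here. A further joint entry of UGT2B15 and UGT2B17, on a haplotype contig, was at 0 FPKM in each tumor. KLF9, a glucocorticoid target, stood at 1.42 FPKM there and at 0.224 to 0.433 FPKM in the others. These genes were chosen after their values had been seen, they rest on 1 tumor, and no test was made.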
